A study of Mus musculus with 4 samples.

Results

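Ribosomal proteins and translation initiation factors were taken as every gene whose symbol starts with Rpl, Rps, Mrpl, Mrps or Eif followed by a digit and that has at least 1 exonic SNP row on an autosome. This gave 85 of 8137 genes. They are 27 cytosolic ribosomal protein genes, 23 mitochondrial ribosomal protein genes, 23 initiation factor genes and 12 further genes that the symbol pattern also takes in (Rps6k kinases, Eif2ak kinases, Eif2c Argonautes, Rps19bp1 and Eif4ebp1). The 85 genes have 380 exonic SNP rows, of which 323 were counted, and 84 genes had at least 1 counted read. Eif3m, the remaining gene, was named because it is a single case, and both of its SNPs are also listed under another gene, to which they were counted.

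The data are allele specific RNA-seq read counts in gonadal fat of F1 mice from reciprocal crosses of the inbred strains C57BL/6J (B) and DBA/2J (D). The 4 samples are RNA pools of chow-fed F1 animals that the labels give as 8 weeks old; the study's methods give an older age. BxD animals had a B mother and DxB animals a D mother, and the labels name 1 female and 1 male pool of either cross. By the labels each pool held RNA of 3 animals, apart from the pool labelled DxB female, which held RNA of 2; under the names in the deposited data the pool of 2 is the one labelled BxD male. Every animal carries 1 B and 1 D allele of each autosomal gene, so the 2 alleles are measured in the same cells, and there is 1 pool for each cross and sex. The values of single animals within a pool cannot be separated.

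The identity of 2 of the 4 pools is in conflict. The pool labelled DxB female carries a name of a BxD male in its deposited data, and the pool labelled BxD male carries a name of a DxB female. The study's list of SNP reads per pool gives the totals of both pools to the cross and sex of the names in the deposited data, not to those of the labels. At X-linked SNPs, B reads made up 67.4% of the reads in the BxD female pool, 96.6% in the pool labelled DxB female, 68.4% in the pool labelled BxD male and 39.0% in the DxB male pool. The 95% Wilson intervals, which like all intervals here cover counting error only, were 66.7 to 68.1%, 96.3 to 96.9%, 67.6 to 69.2% and 38.1 to 39.9%. A male has its X from its mother, so a BxD male would carry the B allele alone at these SNPs. The X shares of both pools in conflict, like their read totals, thus go with the names in the deposited data. The DxB male pool, with D mothers, still had 39.0% B reads, and the reason was not tested. The comparison of the D with the B allele does not need the cross or the sex. Comparisons by parent or by sex are given under both identities. Values of the 4 pools are written below in the order BxD female, labelled DxB female, labelled BxD male and DxB male.

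The counted SNPs drew 4254813, 4157360, 4112206 and 3353668 reads in the 4 pools. Of the markers of fat cells, 5 of 13 had counted SNPs, with 460977 to 637341 reads a pool in sum. Markers of the epididymis (2 of 4 with counted SNPs) had 205 reads in the DxB male pool and 0 in the other pools. Markers of other tissues varied between pools as well. Those of mesothelium had 352, 86, 177 and 53 reads and those of skeletal muscle 75, 3, 29 and 0. Erythroid markers had 507, 955, 381 and 780. The part of these tissues in the results was not tested. B reads outnumbered D reads 1.13 to 1.19 times over all counted SNPs. The fitted log2 ratios given below are D over B after TMM scaling of each allele library, so a gene with equal raw counts has a fitted log2 ratio slightly above 0.

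Cytosolic ribosomes are built from a small subunit, which reads the messenger RNA, and a large subunit, which joins amino acids. The proteins named Rps belong to the small and those named Rpl to the large subunit. Mitochondria hold a second kind of ribosome, built from Mrps and Mrpl proteins that are made in the cytosol and imported, which translates the respiratory chain subunits encoded in mitochondrial DNA. Initiation factors bring the first transfer RNA, the messenger RNA and the small subunit together. Ribosomal protein genes are also known for many processed pseudogenes, copies of the spliced messenger RNA that were inserted elsewhere in the genome, so a short read can match more than 1 place.

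Such copies were frequent around the SNPs measured here. When the 101 bases around each SNP were searched against the genome, 25 of 27 cytosolic genes had a counted SNP with a further copy of at least 90% identity over at least 40 bases, against 9 of 23 mitochondrial ribosomal protein genes, 9 of 22 initiation factor genes and 4 of 12 of the further genes. At 56 of the 323 counted SNPs a copy held the D base at the SNP. Reads of a gene and of its copies cannot be fully told apart in such places, so the values of these genes are uncertain, and the part of the copies in the results below was not tested unless a value is given.

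The D and the B allele differed in 25 of the 84 genes (29.8%; edgeR quasi-likelihood test, Benjamini-Hochberg adjusted p under 0.05 over all genes), against 17.7% of all 7990 genes tested. B was higher in 21 genes (25.0% of the 84, against 12.9% of all genes) and D in 4 (4.76% against 4.84%). In each of the 25 genes, the same allele had more reads in all 4 pools, as in 1405 of the 1415 called over all genes. The fitted log2 ratio had a median of -0.15 over the 84 genes and of -0.02 over all genes. Among genes of at least 100 reads, 18 of 58 were called (31.0%), against 21.5% of all such genes. By group, the test called 10 of 27 cytosolic ribosomal protein genes, 7 of 23 mitochondrial ribosomal protein genes, 7 of 22 initiation factor genes and 1 of the 12 further genes.

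**Figure D1:**
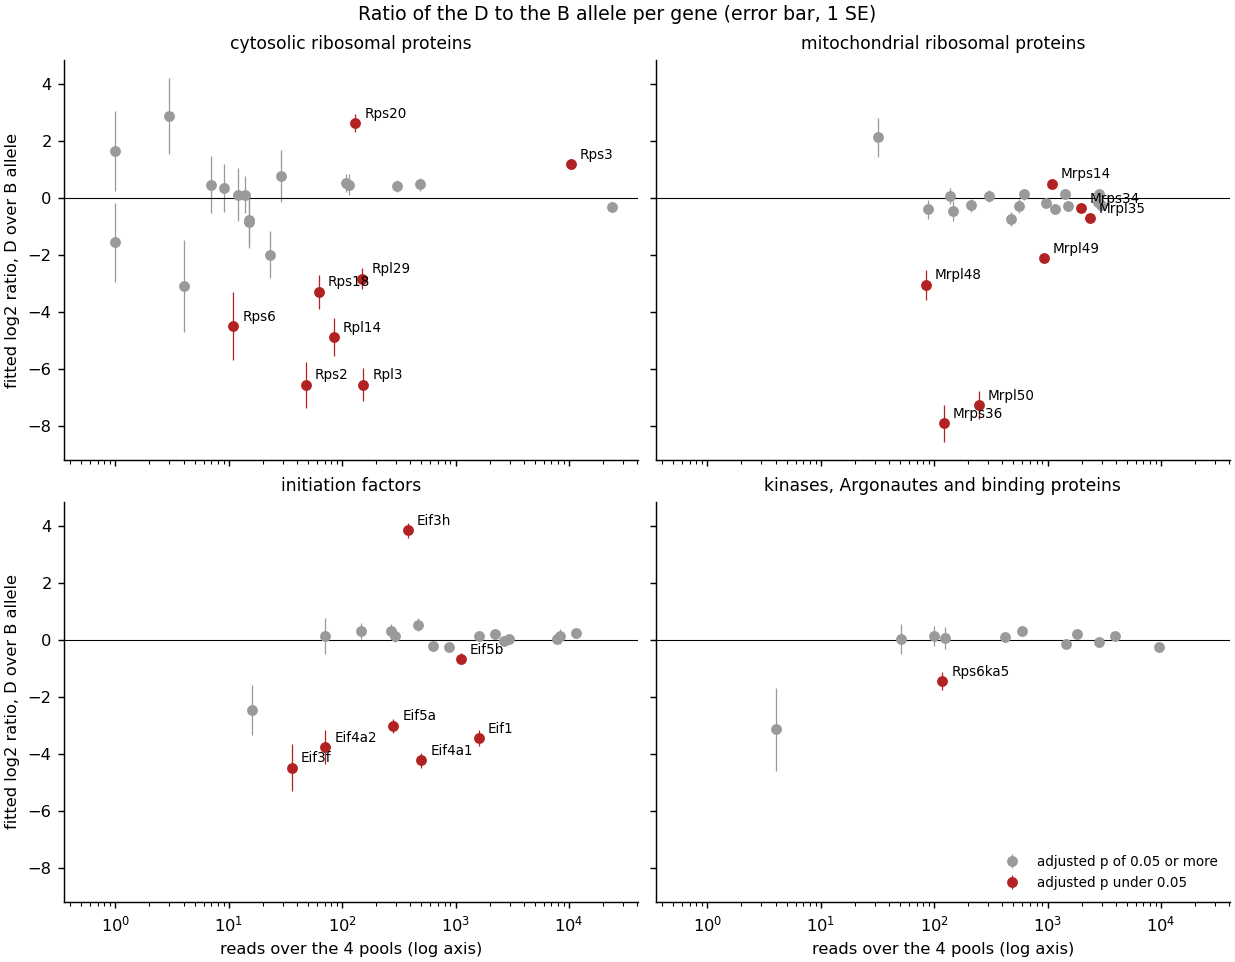
Fitted log2 ratio of the D over the B allele (y axis, error bar 1 SE) against the reads over the 4 pools (x axis, log scale) for 82 of the 84 genes, in 4 panels by group, with 23 called genes in red and named. Of the called genes shown, 19 lie below 0 and 4 (Rps3, Rps20, Mrps14 and Eif3h) lie above it; fitted values of genes with no D read depend on the fit and are no bound.

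The calls depended on the fit and on a class of SNPs. With the pool as a block, which sets the 2 alleles of the same animals against each other, 36 of the 84 genes (42.9%) were called, against 27.2% of all genes. D was then higher in 10 of them (11.0% of all genes) and B in 26 (16.2% of all genes), and the counts by group were 11 cytosolic, 12 mitochondrial, 11 initiation factor and 2 further genes. The 36 genes, the 10 with D higher and the 11 initiation factors include Eif4g1. Its only counted SNP lists the same base for both strains, so its call is void. At 59 of the 323 counted SNPs the weaker allele gave under 1% of the reads, and 48 SNPs had B reads alone while 7 had D reads alone. The study sequenced DNA of D mice at a subset of SNPs with B reads alone, in other genes, and none was verified. Where D carries the B base, a lack of D reads says nothing about expression. The fold values and scaled ratios given below for genes with at most 2 D reads hold only if D differs from B at the SNPs, which was not tested. Without the SNPs under 1%, 14 of 73 genes (19.2%) were called, against 9.31% of all genes: 5 cytosolic, 3 mitochondrial and 6 initiation factor genes, all 14 among the 25. D was then higher in 4 of the 14 (3.73% of all genes) and B in 10 (5.58%). SNPs with few D reads but a share above 1% stay in this setting, such as one of Eif5b (1.45% D) and the only SNP of Eif3f (2.78% D).

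Among the cytosolic ribosomal proteins, 8 genes had more B and 2 more D. The group was measured unevenly: the 2 most-read genes, Rps9 and Rps3, held 93.8% of its 36395 reads, the median gene had 48 reads, and 6 genes had under 10.

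Rps9, a small subunit protein near the entry of the messenger RNA, was the most-read gene of all 85 and shows how far SNPs of the same gene differed. The windows below, from chromosome 7 of mm9 on the plus strand, are shown because each pair lies within the length of a single read. In these and all later windows the capital marks the SNP, at position 13 of 25, with its B base, and the name gives the change from the B to the D base on the gene's own strand.
Rps9 A13G, chr7:3656327-3656351: gctgttgacgctAgacgagaaggat
Rps9 T13G, chr7:3656339-3656363: agacgagaaggaTccccggcgtctg
Rps9 T13A, chr7:3658315-3658339: tcgacttctcccTccgttctcctta
Rps9 C13T, chr7:3658331-3658355: ttctccttatggCggcggccgtcca

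At the first of these SNPs, a synonymous site, 9649 reads carried the B and 10119 the D base, a D share of 51.2% (Wilson 50.5 to 51.9%). At the second, 12 bases on, 22089 reads carried the B and 2 the D base. The third had 3863 B and 10 D reads and the fourth, 16 bases from it, 4143 and 1116, a D share of 21.2%. The D bases of neighbouring SNPs were thus not counted in like numbers. Over the 3 counted SNPs of the gene, B reads numbered 4394, 3557, 2922 and 2711 and D reads 3390, 2539, 2202 and 1998, and B exceeded D in every pool. The fitted log2 ratio was -0.30 ± 0.13 (SE), with an adjusted p of 0.153, and 0.000839 with the pool as a block. When all exonic SNPs were counted in place of the first of each cluster, it was -1.68, with an adjusted p of 2.57e-06. That setting takes in the SNP with 22089 B and 2 D reads. Without SNPs under 1% the fitted log2 ratio was -0.20 ± 0.12 (SE) and not called (adjusted p = 0.433). With SNPs of the same base also left out and the pool as a block, it was -0.21 (adjusted p = 0.000843).

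Rps3, which lines the channel where the messenger RNA enters the small subunit, had more D reads. B reads numbered 1122, 690, 884 and 667 and D reads 2559, 1653, 1599 and 1240, a D share of 67.4% ± 3.11 (SD, n = 4). The fitted log2 ratio was 1.18 ± 0.16 (SE), with an adjusted p of 0.000169. The 4 coding SNPs of over 100 reads differed widely in their D share, and their windows on the minus strand of chromosome 7 are shown from 5′ to 3′ along the gene.
Rps3 T13A, chr7:106630215-106630239: ctacaaactcctTggagggcttgcg
Rps3 G13A, chr7:106628474-106628498: ccgaggacagagGgccaagtccatg
Rps3 C13T, chr7:106628426-106628450: tcacagtggagaCcctgttaactac
Rps3 T13C, chr7:106628399-106628423: tgtcgacacagcTgtgcgccatgtg

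D shares at these 4 SNPs were 6.76%, 85.3%, 61.1% and 45.3%, with Wilson intervals of 4.55 to 9.95%, 84.3 to 86.2%, 58.9 to 63.3% and 43.2 to 47.3%. The SNP at 85.3% drew 5565 reads, against 1829 and 2287 at the neighbours 48 and 75 bases away, and 4745 of them carried the D base. Each of the 4 SNPs has 1 genomic copy of its surroundings. That copy holds the D base at the first and the last SNP and the B base at the other two. At the 3′ UTR SNP with the most reads among those counted, 101 in all, the D share was 35.6%.

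Rps20, a small subunit protein, had B reads of 5, 4, 5 and 5 and D reads of 37, 35, 19 and 21 at its only counted SNP, a synonymous site with 5 copies, all with the B base. D exceeded B in every pool, with a D share of 84.4% ± 5.25 (SD, n = 4), a fitted log2 ratio of 2.63 ± 0.32 (SE) and an adjusted p of 8.81e-05.
Rps20 C13T, chr4:3762122-3762146, minus strand: cttgatcagaggCgccaaggaaaag

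Of the genes with more B reads, the 6 given here had few D reads. Rps2 had 48 B and 0 D reads at a SNP with 65 copies, of which 54 hold the D base, so B was at least 14.6-fold higher when 3 D reads over the 4 pools are set as the floor. Rps6, the substrate of the S6 kinases, had 11 B and 0 D reads, at least 3.35-fold, and its call was lost with DESeq2 (adjusted p = 0.0819), with the pool as a block (adjusted p = 0.125) and without any single pool (adjusted p of 0.0568 to 0.14). Rpl3, which lies near the site of peptide bond formation, had 152 B reads and 1 D read, a scaled ratio of 139 with a counting interval of 24.6 to 5530. None of these 3 genes kept a SNP when those under 1% were left out.

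Rpl14, of the large subunit, had 82 B and 2 D reads, a scaled ratio of 37.5 with a counting interval of 10.1 to 315. Its adjusted p went from 0.00022 to 0.063 without the SNPs under 1%. Rps18 and Rpl29 stayed called without them. Rps18 of the small subunit had B reads of 17, 12, 10 and 18 and D reads of 2, 0, 1 and 2 at a SNP with 14 copies, 12 of them with the D base. Its fitted log2 ratio was -3.28 ± 0.60 (SE). Rpl29 of the large subunit had 134 B and 17 D reads, and 14 of the 17 D reads came from its only counted SNP without a copy, where the D share was 18.9%.

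The remaining 16 cytosolic genes beside Rps9 did not pass the test, among them Rpl34, with 136 B and 166 D reads (log2 ratio 0.42 ± 0.22, adjusted p = 0.25). All of its D reads came from 1 SNP, with 117 B and 166 D reads, which the annotation column gives as intronic. By that column the gene kept 17 and 2 B reads at its other SNPs and no D read, and was called with B higher (log2 ratio -5.22, adjusted p = 0.0273), a fitted ratio that is no bound.

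**Figure D2:**
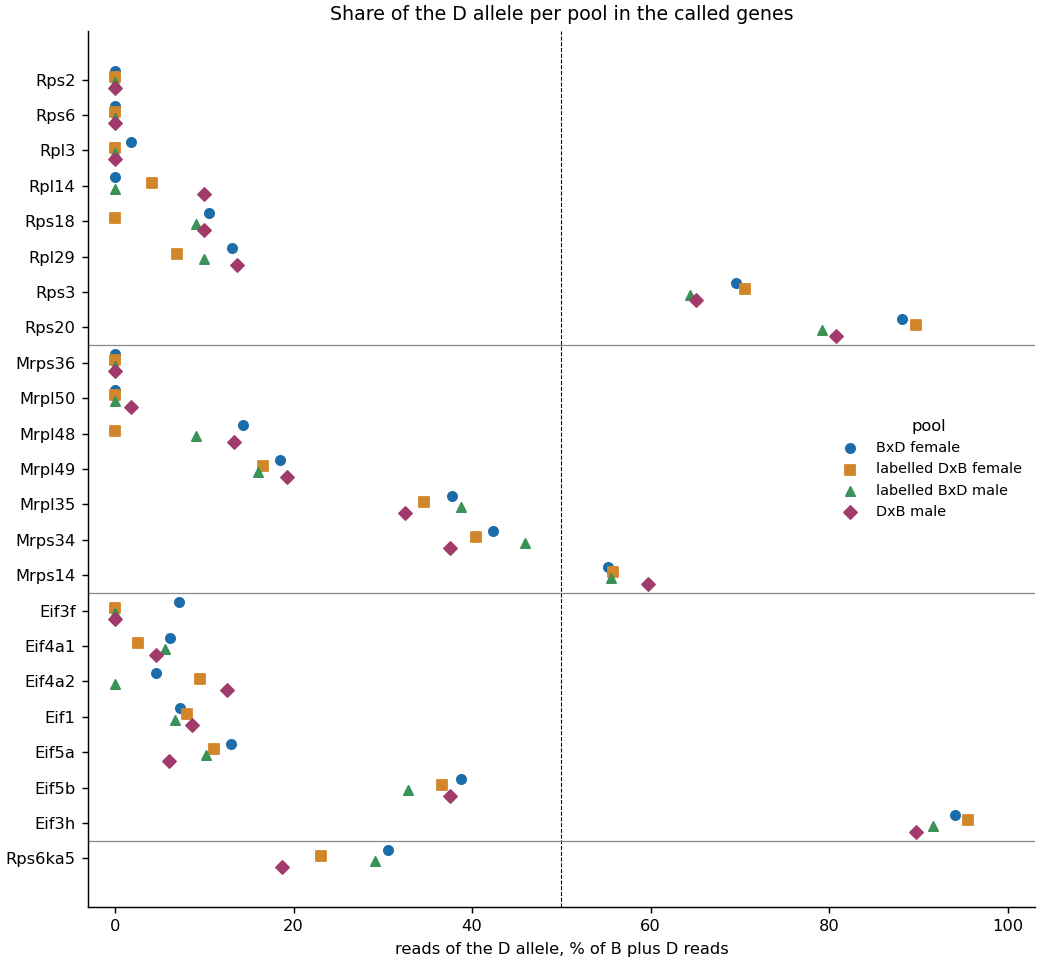
D reads as a percentage of B plus D reads (x axis) in each of the 4 pools (marker shape and color) for 23 of the 25 called genes (y axis), ordered within the 4 groups. All 4 pools lie on the same side of 50% in every gene shown, and Rps2, Rps6 and Mrps36 have no D read in any pool.

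Mitochondrial ribosomal proteins were counted more evenly, with a median of 614 reads a gene, and no gene had under 10 reads. The 7 called genes were 6 with more B (Mrpl35, Mrpl48, Mrpl49, Mrpl50, Mrps34 and Mrps36) and Mrps14 with more D.

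Mrpl35, a large subunit protein on chromosome 6, had B reads of 413, 412, 356 and 316 and D reads of 251, 218, 225 and 152. The D share was 35.9% ± 2.89 (SD, n = 4), with a fitted log2 ratio of -0.71 ± 0.11 (SE) and an adjusted p of 0.000498. B exceeded D in all 4 pools, and 24 SNPs were counted. It is the called gene with the most counted SNPs, and B was higher at nearly all of them. Coding SNPs of over 100 counted reads had D shares of 25.9 to 43.7%, apart from a non-synonymous SNP at 56.9%. At the SNP with the most reads among the counted 3′ UTR SNPs, 152 reads carried the B and 93 the D base, 38.0%. Shares were lower at the closely spaced SNPs from chr6:71765728 to 71765901, not all of them counted. There the D share was 0 to 17.6%, with 8 to 32 reads a SNP. The windows show the coding SNP of lowest share and that non-synonymous SNP, 26 bases apart on the minus strand.
Mrpl35 T13C, chr6:71768716-71768740: agttgtttcctcTgctccaagactt
Mrpl35 C13T, chr6:71768742-71768766: attcattttagaCatattcagacat

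Mrps34, a small subunit protein, had B reads of 320, 287, 277 and 252 and D reads of 235, 195, 235 and 151 over 2 synonymous SNPs. Their D shares were 40.9% and 44.4%, so both SNPs were on the same side. The fitted log2 ratio was -0.36 ± 0.11 (SE) with an adjusted p of 0.0475, and the call was lost without the BxD female pool (0.119), the pool labelled DxB female (0.205) or the DxB male pool (0.273), and when all exonic SNPs were counted (0.0596). Mrps14, another small subunit protein, had B reads of 136, 126, 137 and 79 and D reads of 168, 159, 171 and 117 at a single synonymous SNP. D exceeded B in each pool, with a D share of 56.6% ± 2.10 (SD, n = 4), a fitted log2 ratio of 0.50 ± 0.13 (SE) and an adjusted p of 0.0217. Its call was lost without the BxD female pool (0.0626), the pool labelled DxB female (0.103) or the DxB male pool (0.082), and with a single library size per pool (0.108). The only copy of that SNP's surroundings holds the D base.
Mrps34 G13T, chr17:25032193-25032217, plus strand: gccgcgagattcGcagctctacgcc
Mrps14 C13G, chr1:162129612-162129636, plus strand: aatcagaaatcgCtgtgttatgaca

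Mrpl49, of the large subunit, had 762 B and 162 D reads over 3 counted SNPs without copies, a fitted log2 ratio of -2.10 ± 0.15 (SE) and an adjusted p of 7.39e-07. All 162 D reads came from the non-synonymous SNP, where B had 126 reads and the D share was 56.2%. The other 2 SNPs had 487 and 149 B reads and no D read, which allows D shares of up to 0.616% and 2.01%. Without these, the fitted log2 ratio turned to 0.44 and was not called (adjusted p = 0.311). The 3 windows, on the minus strand of chromosome 19, are shown from 5′ to 3′ because their gene-level value hides 2 kinds of SNP.
Mrpl49 G13C, chr19:6057707-6057731: agcagcggtgttGcgagccgctttg
Mrpl49 G13T, chr19:6057004-6057028: gaataccaatttGtggagcgcctgc
Mrpl49 A13G, chr19:6054736-6054760: atgggatacaaaAatcagggcttaa

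Mrps36 had 122 B and 0 D reads at 1 SNP of the 5′ UTR, at least 37.2-fold more B. Its protein is also known as a component of the oxoglutarate dehydrogenase complex. Mrpl50 had 247 B reads and 1 D read at a non-synonymous SNP, a scaled ratio of 226 with a counting interval of 40.2 to 8963. Neither SNP has a copy, and neither gene kept a SNP once those under 1% were left out. Mrpl48 had 76 B and 8 D reads, and 5 of its 6 counted SNPs have copies. Its adjusted p went from 0.0013 to 0.0675 without the SNPs under 1%.

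The 2 most-read mitochondrial ribosomal protein genes were not called. Mrps23, of the small subunit, had B reads of 521, 390, 472 and 284 and D reads of 392, 288, 362 and 237. Its D share lay between 42.5 and 45.5% in the 4 pools, with an adjusted p of 0.275, and of 0.0182 with the pool as a block. Mrpl3, of the large subunit, had 1429 B and 1431 D reads (adjusted p = 0.526), and its 11 counted SNPs included 9 of over 40 reads, at D shares of 42.9 to 55.0%.

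Of the initiation factors, 6 called genes had more B (Eif1, Eif3f, Eif4a1, Eif4a2, Eif5a and Eif5b) and Eif3h had more D. Eif3h and Eif3f are subunits of eIF3, the complex that holds the small subunit ready for initiation. Eif3h had B reads of 7, 5, 6 and 8 and D reads of 111, 107, 66 and 70 at its only counted SNP, in the 3′ UTR. The D share was 92.8% ± 2.56 (SD, n = 4), the fitted log2 ratio 3.85 ± 0.26 (SE) and the adjusted p 6.5e-07. The 1 copy of its surroundings holds the B base. Eif3f had 35 B reads and 1 D read, a scaled ratio of 32.0 with a counting interval of 5.38 to 1301, and no copy.
Eif3h A13G, chr15:51618209-51618233, minus strand: ttgagaggccacAgagtgcacttgg
Eif3f T13C, chr7:116077966-116077990, plus strand: ggctaatgtcccTcctgccactgca

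Eif1, which guards the choice of the start codon, had B reads of 409, 455, 250 and 371 and D reads of 32, 40, 18 and 35 at its only counted SNP, in the 3′ UTR. The D share was 7.67% ± 0.85 (SD, n = 4), with a fitted log2 ratio of -3.44 ± 0.27 (SE) and an adjusted p of 2.36e-06. A second SNP 2 bases away, not counted, had 1534 B and 7 D reads, so 125 reads carried the D base at the first but 7 at the second. Both windows, on the plus strand of chromosome 11, are shown for that pair.
Eif1 T13G, chr11:100183253-100183277: tgccattggctgTgtggctagctgt
Eif1 T13G, chr11:100183255-100183279: ccattggctgtgTggctagctgtag

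Eif4a1 and Eif4a2 are the RNA helicases that unwind the 5′ end of messenger RNAs. Eif4a1 had 475 B and 23 D reads, a fitted log2 ratio of -4.22 ± 0.27 (SE) and an adjusted p of 3.22e-07. Its 3′ UTR SNP had 451 B reads and 1 D read, while a synonymous SNP had 19 B and 22 D reads. Without the SNPs under 1% the fitted log2 ratio was 0.29 and not called (adjusted p = 0.871). Eif4a2 had 67 B and 4 D reads at a SNP with 2 copies, both with the B base, and a fitted log2 ratio of -3.75 ± 0.59 (SE).
Eif4a1 C13T, chr11:69481205-69481229, minus strand: ccttcccaccaaCagggaaaactac
Eif4a1 C13A, chr11:69480709-69480733, minus strand: tccttcccccccCaaacactaatgc

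Eif5a, a factor that despite its name acts mainly in elongation and termination, had 254 B and 29 D reads and a fitted log2 ratio of -3.01 ± 0.25 (SE), with an adjusted p of 3.44e-06. From 5′ to 3′, its 3 counted SNPs had D shares of 44.0%, 10.3% and 0%, with 50, 68 and 165 reads. The first, the SNP annotated at a splice site, is the only one without a copy.

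Eif5b, the GTPase that joins the 2 ribosomal subunits, had B reads of 212, 216, 170 and 105 and D reads of 134, 125, 83 and 63. The fitted log2 ratio was -0.67 ± 0.19 (SE) with an adjusted p of 0.0331, and the call was lost without the BxD female pool (0.0677), the pool labelled DxB female (0.0702) or the pool labelled BxD male (0.138). The 5′ UTR SNP had 271 B and 4 D reads, a D share of 1.45%. Its share is above 1%, so it stayed when SNPs under 1% were left out (log2 ratio -0.69, adjusted p = 0.0479). The call without this SNP was not tested. The 4 synonymous SNPs of over 100 reads lay between 43.6 and 52.5%, far from the value at the 5′ UTR SNP. None of these SNPs has a copy.
Eif5b A13G, 5′ UTR, chr1:38055023-38055047: ggcggcggcgcgAgggggaccgagc
Eif5b T13C, synonymous, chr1:38078518-38078542: gaaaggccctagTaaatctactgtt

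Eif4g3 and Eif4g1, scaffolds that tie the cap-binding protein to the helicase and to eIF3, were the most-read initiation factors. Eif4g3 had B reads of 1635, 1478, 1371 and 1062 and D reads of 1844, 1555, 1405 and 1149. Its D share was 51.7% ± 1.02 (SD, n = 4), with a fitted log2 ratio of 0.23 ± 0.10 (SE), an adjusted p of 0.161, and of 0.00693 with the pool as a block. Its 14 counted SNPs ran from 44.4 to 59.4% D. The only counted SNP of Eif4g1 lists the same base for both strains, with equal counts (4130 for each), so it does not separate the alleles and its value is no measurement of their ratio. The test with the pool as a block nevertheless called it (adjusted p = 0.0368), and that call is void.

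Of the 12 further genes, only Rps6ka5, a nuclear kinase that phosphorylates histone H3 and CREB, was called. It had 88 B and 30 D reads and a fitted log2 ratio of -1.44 ± 0.32 (SE), with an adjusted p of 0.00731, and of 0.0567 without the DxB male pool. Its 5′ UTR SNP had 69 B and 0 D reads and its synonymous SNP 19 and 30, a D share of 61.2%. Without the SNPs under 1% the fitted log2 ratio was 0.73 (adjusted p = 0.366). The most-read genes of this group were Eif4ebp1, the mTORC1 target that holds the cap-binding protein, and Rps6ka4, a kinase related to Rps6ka5. Eif4ebp1 had B reads of 1291, 1367, 1458 and 1268 and D reads of 1005, 1134, 1126 and 942, with an adjusted p of 0.321, and of 0.0107 with the pool as a block. Its 2 most-read SNPs had D shares of 35.8% in the coding sequence and 59.9% in the 3′ UTR. Rps6ka4 had 1935 B and 1970 D reads (adjusted p = 0.491).

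**Figure D3:**
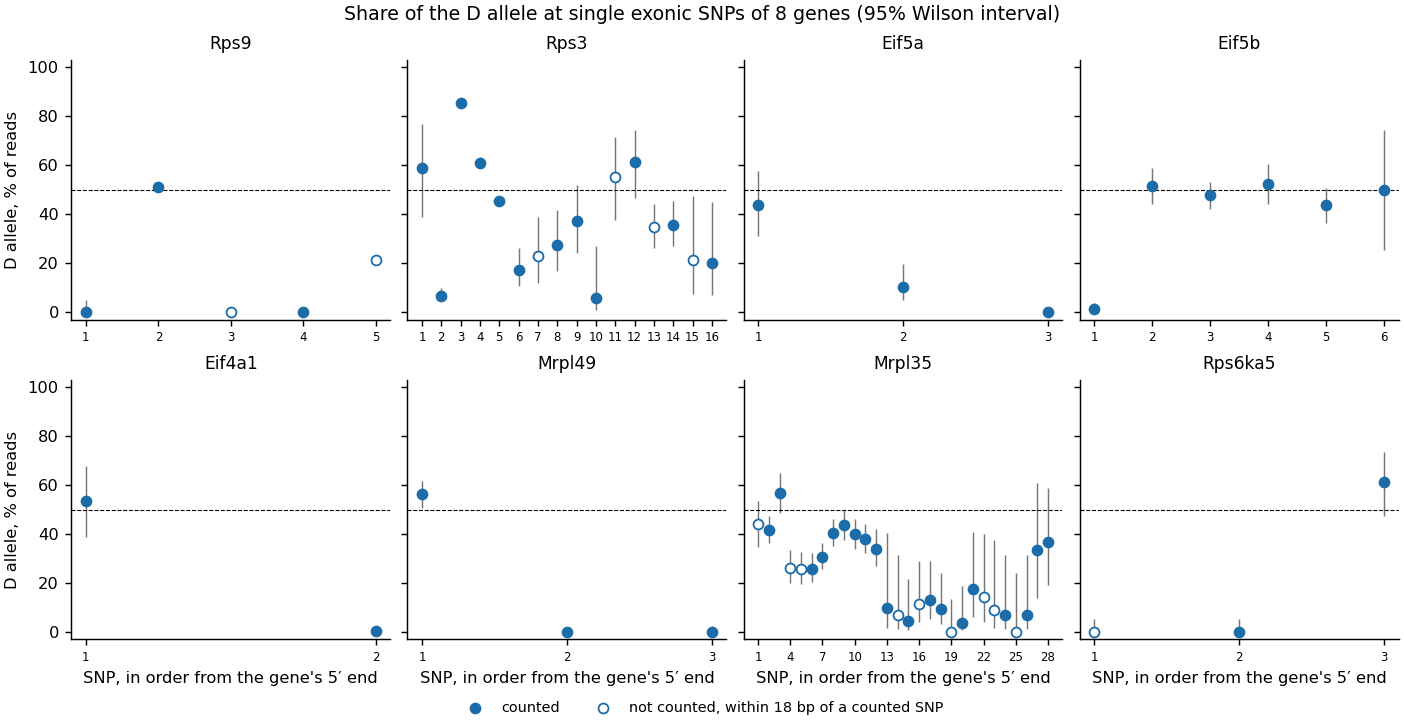
D reads as a percentage of all reads over the 4 pools (y axis, with 95% Wilson intervals) at single exonic SNPs of at least 10 reads, in order from the 5′ end (x axis), in 8 genes. Filled points were counted and open points lie within 18 bases of a counted SNP. In Rps9, Eif5a, Eif5b, Eif4a1, Mrpl49 and Rps6ka5 SNPs near 0% stand beside SNPs near 50%, and in Mrpl35 nearly all points lie below 50%.

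Across the genes, such spread recurred. The matching spread over all genes is not given here, so it cannot be read as a trait of these genes. In 40 genes at least 2 counted SNPs had 20 or more reads, and the difference between their highest and lowest D share had a median of 17.6 percentage points. It was over 20 points in 17 genes. In the 10 genes with a SNP under 1% the median was 47.6 points, and in the other 30 genes 14.4 points. A SNP under 1% lies at an end of the scale of D shares by definition. The split is therefore made on the measured shares themselves, and the difference between these medians is no separate result. This spread includes counting error, which is large at 20 reads. Of the 47 genes with a copy at a counted SNP, 18 were called, and of the 37 without one, 7 were called, against 17.7% of all genes.

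Intronic SNPs gave a second reading of the alleles in the same libraries. Of 76 of the genes with intronic reads, 12 were called (15.8%), against 11.3% of all 9561 genes. B was higher in 11 of them (7.12% of all genes) and D in 1 (4.19%). Of the 25 genes called in exons, 20 had intronic reads, and 2 of them were called in introns. The matching share over all genes called in exons is not given here, so this overlap cannot be read as a trait of these genes.

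Eif1 had intronic B reads of 9, 21, 20 and 8 and no D read, at least 17.3-fold more B, in the same direction as its exonic SNP. All of these reads came from SNPs with B reads alone, so none of them stays when SNPs of a single allele are left out. Mrps14 was called in the opposite direction: its intronic SNPs had 17 B reads and 1 D read, a scaled ratio of 15.2 with a counting interval of 2.39 to 636, while its exonic SNP had more D. The adjusted p of Mrps14 in introns was 0.0161, and 0.0554 with the pool as a block.

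The other 4 of the 5 lowest adjusted p-values in introns belonged to genes not called in exons. Rpl31, of the large subunit, had intronic B reads of 10, 9, 4 and 12 and no D read, at least 10.4-fold. Over all intronic SNPs without the rule on neighbours, it was no longer called (adjusted p = 0.146). Rpl34 had B reads of 71, 42, 52 and 39 and D reads of 19, 12, 24 and 21, a fitted log2 ratio of -1.27 ± 0.26 (SE), with an adjusted p of 3.68e-05. Mrps7, of the small mitochondrial subunit, had B reads of 57, 49, 59 and 38 and D reads of 12, 15, 30 and 19 (log2 ratio -1.26 ± 0.26, adjusted p = 3.93e-05). Mrpl24, of the large mitochondrial subunit, had B reads of 96, 96, 95 and 61 and D reads of 63, 38, 35 and 28 (log2 ratio -0.99 ± 0.21, adjusted p = 5.91e-05). In these 3 genes B exceeded D in every pool. In exons, Mrpl24 had 860 B and 650 D reads (log2 ratio -0.27 ± 0.11, adjusted p = 0.119, and 0.0256 with the pool as a block), Mrps7 had 52 and 36, and Rpl34 had 136 and 166.

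**Figure D4:**
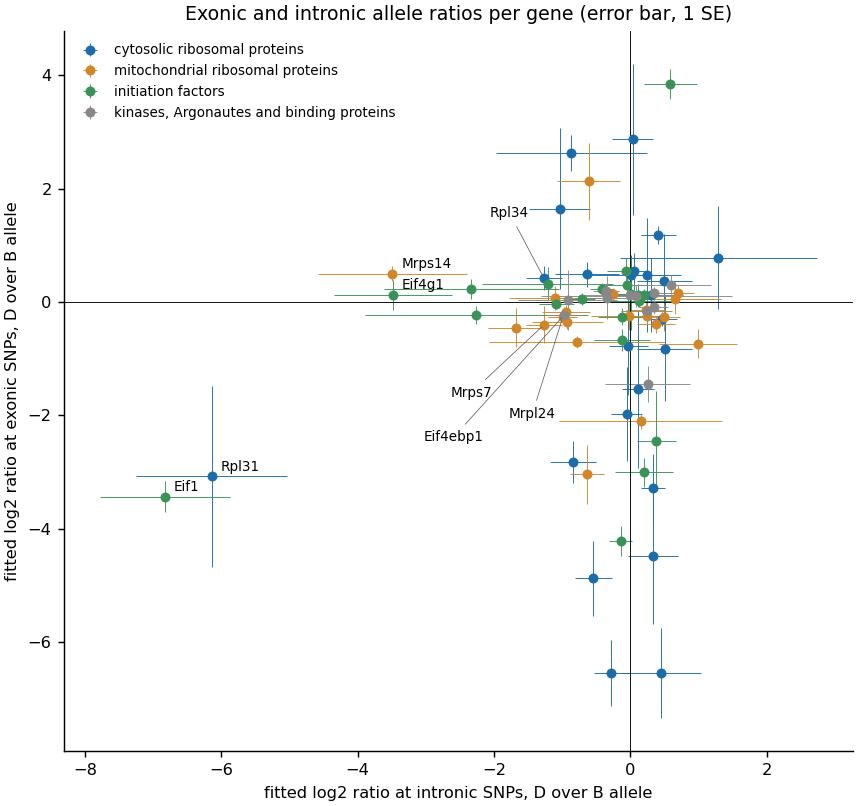
Fitted log2 ratio of the D over the B allele at exonic SNPs (y axis) against that at intronic SNPs (x axis) for 75 genes with both, with 1 SE as bars and the groups in color; genes that are named in the text and called in introns are labelled. Eif1 lies far to the left and below 0 on both axes, and Mrps14 lies left of 0 on the intronic and above 0 on the exonic axis; both axes come from the same 4 pools.

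The reciprocal crosses ask whether the parent of an allele matters, and the sexes whether the ratio of the alleles differs between males and females. No gene of the 84 was called for parent by the labels (0.0% of all genes called) or by the names in the deposited data (0.0501% of all genes). At an unadjusted p under 0.05, 1 of the 84 was found by the labels with edgeR and 1 with DESeq2, which also called none, and 0 with edgeR by the other identity. It was Mrps5, a small mitochondrial subunit protein named because it was this single gene, with a log2 ratio of maternal over paternal of 0.53 ± 0.22 (SE; adjusted p = 0.9999 with edgeR). Because of which pools are in conflict, the parental contrast under 1 identity corresponds to the strain by sex contrast under the other, and Mrps5 had the smallest p there too under the names in the deposited data (log2 difference 1.09 ± 0.39, edgeR adjusted p = 0.9999).

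For strain by sex, 0 of the 84 genes were called by edgeR or DESeq2 under the labels (0.1% of all genes with edgeR) and 0 by edgeR under the other identity (0.0%). At an unadjusted p under 0.05, edgeR found 1 gene under either identity and DESeq2 found 0 by the labels.

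Total reads, B plus D, did not pass the test by sex in any of the 84 genes under either identity, with 0.0% of all genes called by the labels and 2.79% by the other identity. At an unadjusted p under 0.05, edgeR found 1 gene by the labels and 4 by the other identity, and DESeq2 found 0 by the labels and called none. The 1 was Eif5b, lower in males by the labels (log2 ratio -0.46 ± 0.18, adjusted p = 0.94 with edgeR). The 4 were Eif1, higher in males (log2 ratio 0.60 ± 0.20), and Eif5, Rpl3 and Rpl3l, lower in males (-1.42 ± 0.55, -0.71 ± 0.33 and -2.35 ± 0.83); Eif5 and Rpl3l were named because their values were seen. Their adjusted p-values in the edgeR test were 0.171 to 0.421.

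The share of all counted reads that fell in the 85 genes was 0.862%, 0.755%, 0.767% and 0.732% in the 4 pools. Cytosolic ribosomal proteins took 0.286%, 0.216%, 0.199% and 0.21%, and the BxD female pool stood above the other three. Rps9 and Rps3 held 93.8% of these cytosolic reads over the 4 pools, so the cytosolic share mainly follows these 2 genes and not the group. Mitochondrial ribosomal proteins took 0.133 to 0.153% and initiation factors 0.252 to 0.287%. With 1 pool for each cross and sex, these differences have no replicate check. In bulk tissue, fewer cells of a type and less RNA per cell cannot be told apart, and the shares depend on how many SNPs each gene has.

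**Figure D5:**
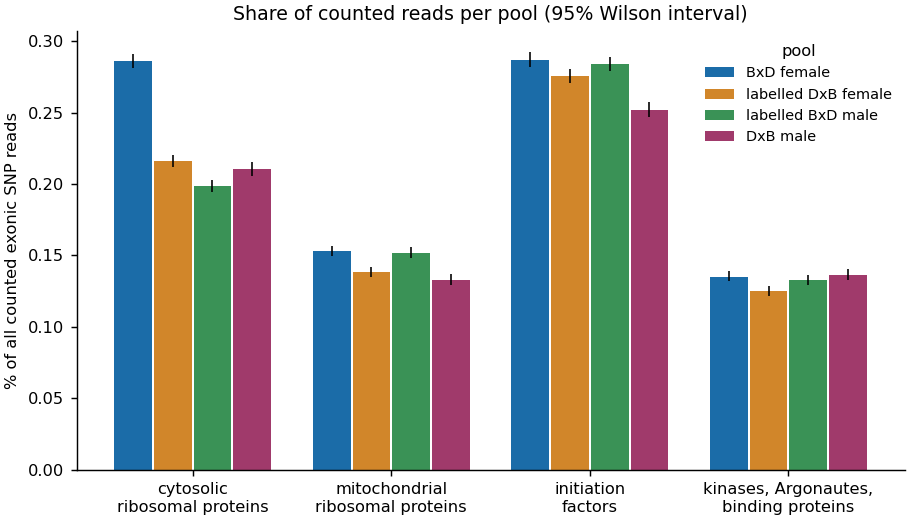
Share of all counted exonic SNP reads (y axis, percent, from 0) taken by each of the 4 groups of genes (x axis) in each pool (color), with 95% Wilson intervals. The cytosolic ribosomal proteins reach 0.286% in the BxD female pool and 0.199 to 0.216% in the other 3 pools. Over the 4 pools, 93.8% of the cytosolic reads are from 2 genes, Rps9 and Rps3.

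Other genes of translation were described from lists. Among factors of elongation and termination 1 of 3 measured genes was called, among mitochondrial translation factors 0 of 5, among cytosolic aminoacyl-tRNA synthetases 1 of 11, among ribosome biogenesis factors 5 of 20 and among regulators of cap binding and mTORC1 2 of 7, against 17.7% of all genes. D was higher in 2 of the 5 ribosome biogenesis factors and in none of the other called genes.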

How the data were processed

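RNA-seq was done on polyA RNA of 4 pools. The authors deposited raw counts: at each SNP, how many reads held the B and how many the D base. Per the study's methods, mates were mapped as single reads with mrsFAST with D variants masked, though whether this was applied is uncertain from a supplementary text, then with TopHat; uniquely mapped reads were kept. The submitters' processing notes name CASAVA, TopHat 1 and mm9. The B base equalled NCBIM37 (mm9) at all 311375 rows. Removal of PCR copies is not described, so intervals (95%) and floors (3 counts) cover counting error only.

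The members and lists were chosen with earlier results of these data known. Groups came from the labels; the names in the deposited data were the alternative for 2 pools. The labels do not say more of replication than the pools, so p-values rest on the spread between 4 pools. Without a block, the SE and p-value of the main test also take in differences between pools in the total reads of a gene. With the pool as a block they rest on the spread of the allele ratio. For Eif4g1, with equal B and D counts in every pool, the SE was 0.26 without and 0.033 with the block. Of exonic SNPs closer than 18 bp only the first was used, each position for 1 gene, and B and D counts were summed per gene; columns of the files flagged as exonic decided, also where the annotation column says intronic. Depth was 3353668 to 4254813 counted reads a pool.

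The main test was edgeR 4.0.16 in R 4.3.3 (quasi-likelihood, TMM, Benjamini-Hochberg over all genes with a read, threshold 0.05) on 8 allele libraries; DESeq2 1.42.0, limma 3.58.1 as part of edgeR, and other settings were alternatives. SE is the absolute log2 ratio over the square root of F. The alleles of a pool come from the same animals, so the pool pairs them; within-pool correlations of deviations were 0.651, 0.197, 0.648 and 0.146 over 5114 genes. Scripts were tested on simulated data. Copies were searched with BLAST+ 2.17.0 in NCBIM37; 84 of 85 symbols matched GENCODE M1. Other work used matplotlib 3.10.9, pysam 0.24.0, scipy 1.17.1, numpy 2.4.6, pandas 2.3.3 and Python 3.11.15. Named were called genes (at most 12 a group), the 2 most-read genes of each group and at most 5 genes called per other test; 2 called genes are counted but not reported here.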

Additional observations from a re-analysis of the deposited data

Results flagged for a closer look

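In 2 of the 37 values compared across the 4 pools, 1 pool lay further from the others than Dixon's 95% critical value allows (the gap to the nearest pool over the whole range). Chance gives about 1 such value in 20. For Rps18 the pool labelled DxB female stood apart, with a gap of 0.958 of the range: it had 12 B and 0 D reads, and the other pools had 10 to 18 B and 1 or 2 D reads. For Mrpl50 the DxB male pool stood apart, with 0.927 of the range: it held the only D read of the gene, beside 54 B reads. Both rest on 0 to 2 D reads a pool.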

How the results depend on the processing

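The 25 calls between alleles stayed within 1.5 times under DESeq2 (25), a minimum of 10 counts (25), all exonic SNPs (25), 50 bp between SNPs (25), RLE scaling (25), 1 library size per pool (27), autosomes alone (25), the annotation column (24), the pool as a block (36) and without SNPs of a single allele (17), and lay between 21 and 24 without each pool in turn. They became 14 without SNPs under 1%, and 14 when SNPs of the same base were also left out, a setting chosen after seeing the data. With B higher the count went from 21 to 13 without SNPs of a single allele, and to 10 without SNPs under 1%, also with those of the same base left out; with D higher from 4 to 10 with the pool as a block, to 9 when both kinds of SNP were left out as well, and to 10 with the annotation column and the block. Cytosolic calls went from 10 to 6 without SNPs of a single allele and to 5 in both settings without SNPs under 1%. Mitochondrial calls went from 7 to 4 and to 3 in the same settings, and to 12 with the block, with or without the annotation column; initiation factor calls went from 7 to 11 with the block. Without each pool in turn, cytosolic calls were 9, mitochondrial 5 to 8, initiation factor 6 to 7, B higher 18 to 20, D higher 3 to 4 and intronic calls 9 to 11. Intronic calls went from 12 to 7 without SNPs of a single allele. Over all genes, calls went from 1415 to 2175 with the block, to 850 without SNPs of a single allele and to 637 without SNPs under 1%. Fewer SNPs and genes remain in these settings; beyond that the cause was not tested. With the block 12 genes gained and 1 lost the call in exons; 6 of the 12 are given beside their results, and the other 6 are not named. Intronic calls were 14 with the block. The exonic counts with the block include the void call of Eif4g1, except where SNPs of the same base were left out.

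The log2 ratio turned for Mrpl49 (0.45 without SNPs of a single allele, 0.44 without SNPs under 1%, 0.44 with SNPs of the same base also left out, 0.45 with the block added), Eif4a1 (0.29, 0.29 and 0.31 in the settings from SNPs under 1% on) and Rps6ka5 (0.73, 0.73, 0.72 and 0.73 in the same order as Mrpl49). It also turned for Rpl34, to -5.22 by the annotation column, where it was called, and for Rpl31 in introns, to 0.066 without SNPs of a single allele. Of 687 values of named genes in exons under other settings, 626 kept direction and side of the threshold, 28 lost and 21 gained the call and 12 turned. No gene of the 84 was called for parent, strain by sex or total reads under any setting run, with 0 in each left-out pool. A single library size per pool moved the median log2 ratio of all genes from -0.02 to -0.15; its D higher calls were 3. With genes lacking an allele set at their bound, the median of the 84 genes was -0.11 and that of all genes 0.0.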
